A study of Homo sapiens with 8 samples.

Results

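Epithelial identity genes are described here by *CDH1*, *EPCAM*, *ESRP1*, *ESRP2*, *GRHL2*, *KRT8*, *KRT18*, *KRT19*, *CLDN4* and *CLDN7*, a list of 10 genes chosen by symbol out of 64486 annotated genes, of which 20176 are protein-coding. All 10 were found in the annotation. They were followed through MBD-seq peaks, regions in which fragments captured with the protein MBD2, which binds methylated CpG, piled up, in 8 neuroblastoma (NB) cell lines. N206, IMR-32, CHP-902R and LAN-2 (LA-N-2 in its sample title) are labelled as *MYCN* amplified (MNA), and SJNB-1, SK-N-AS, SH-SY5Y and CLB-GA as not amplified (*MYCN* single copy). No treatment is given for any of these established tumor cell lines, and each was sequenced as 1 sample, so that the 4 lines of a *MYCN* group are its replicates and the spread within a line is unknown. The peaks were called by the authors in each line on its own. The promoter readout is a peak that overlaps, by at least 1 bp, the stretch of −1500 to +1000 bp around any transcription start site (TSS) of the gene, and the gene body readout is a peak between the outer ends of the gene. The covered length is the number of bp of all promoter windows of a gene that lie under peaks. A gene listed with 0 bp has no peak that passed the peak caller, which is not the same as no methylation, since the lists hold no read counts and the depth of each line was not used here.

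The products of these genes hold epithelial sheets together and keep them in that state. E-cadherin, claudins and EPCAM join neighbouring cells, simple epithelial keratins form the filaments inside them, and GRHL2 and the ESRP proteins act on the transcription and the splicing of epithelial genes. Dense methylation of CpG around a TSS usually goes with a silent gene, whereas methylation inside a gene body is also common in active genes, and MBD-seq alone does not measure expression. NB arises from the neural crest, whose cells leave an epithelium and lose such junctions as they migrate.

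A promoter peak was found in 1 or more lines for all 10 genes and for 73.9% of protein-coding genes. *KRT19* and *ESRP2* had one in all 8 lines, *CLDN4* in 7, *CDH1*, *EPCAM* and *CLDN7* in 6, *GRHL2* in 5, *KRT8* in 4, *KRT18* in 3 and *ESRP1* in 2. The median was 6 lines, against 2 lines over all protein-coding genes. At least 4 lines were reached by 8 of these genes and by 39.5% of protein-coding genes, and at least 6 lines by 6 of the 10 genes and 21.6% of protein-coding genes. Since the 10 genes have between 5 and 18 annotated TSS each, the count was repeated with the window of the canonical TSS alone, which is equally long in every gene. The order then changed in part, with 7 lines for *KRT19* and *CLDN4*, 5 for *EPCAM*, 4 for *ESRP2* and *CLDN7*, 3 for *GRHL2*, 2 for *CDH1*, *KRT8* and *KRT18*, and 1 for *ESRP1*. The median was 3.5 lines against 0 over the 19894 protein-coding genes with a canonical TSS. Over the gene bodies the genes stood closer to the rest of the genome, with a median of 7 lines against 6. These counts describe a list that was put together with earlier results of these data in view, and no test of the list was made.

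**Figure D1:**
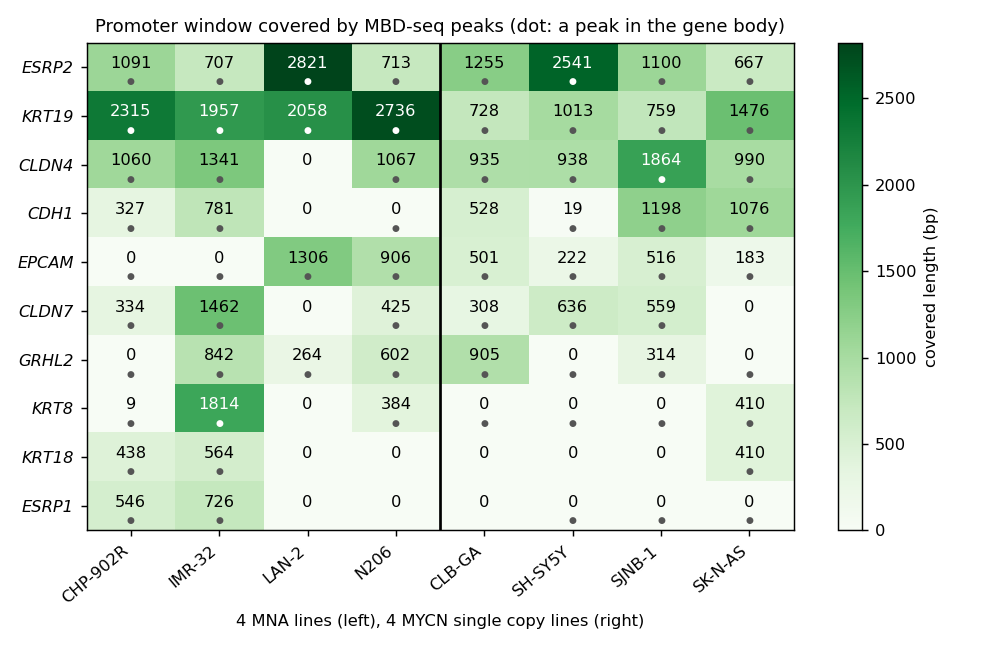
Heat map of the covered length of the promoter windows, in bp, for each of the 10 genes (rows) in each line (columns, MNA left of the black line, *MYCN* single copy right of it), with a dot where the gene body holds a peak. *KRT19* and *ESRP2* are covered in all 8 lines, *ESRP1* in 2, and LAN-2 shows 0 bp for 6 genes.

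Among the junction genes, *CLDN4*, a tight junction claudin of a single coding exon (chr7:73213872-73247020, + strand, GRCh37), was covered in every line but LAN-2. Covered lengths of its promoter windows were 1341 bp in IMR-32, 1060 bp in CHP-902R, 1067 bp in N206 and 0 bp in LAN-2, as well as 1864 bp in SJNB-1, 990 bp in SK-N-AS, 938 bp in SH-SY5Y and 935 bp in CLB-GA. In the 7 covered lines a peak lay over the canonical start itself or within 130 bp of it and ran on over the coding exon, and in IMR-32 an additional peak of 470 bp lay at an upstream TSS. The nearest peak in LAN-2 was 4292 bp away. Peak scores, −10 times the log10 of the p-value that MACS gave the peak, ran from 65.18 to 177.94 over the promoter peaks of *CLDN4*, and the highest, in CLB-GA, was above 99.1% of the peaks in that list. The 7 peaks shared an interval of 698 bp with 47 CpG, of which 300 bases (chr7:73245515-73245814, + strand) with the start of the coding sequence are shown, CpG in capitals, as the stretch of this gene that 7 lines had in common:
CLDN4 shared interval: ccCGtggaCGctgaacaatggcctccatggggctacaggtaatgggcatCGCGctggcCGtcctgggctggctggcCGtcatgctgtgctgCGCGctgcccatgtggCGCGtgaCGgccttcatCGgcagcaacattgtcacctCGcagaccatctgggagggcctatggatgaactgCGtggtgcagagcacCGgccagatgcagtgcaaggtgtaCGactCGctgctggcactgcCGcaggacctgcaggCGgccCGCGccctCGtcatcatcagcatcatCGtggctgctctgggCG

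*CLDN7*, a claudin expressed along with *CLDN4* in many epithelia (chr17:7163222-7167302, − strand), had peaks in 6 lines, but at different places. Covered lengths were 1462 bp in IMR-32, 334 bp in CHP-902R, 425 bp in N206 and 0 bp in LAN-2, as well as 559 bp in SJNB-1, 0 bp in SK-N-AS, 636 bp in SH-SY5Y and 308 bp in CLB-GA. Only in SH-SY5Y and SJNB-1 did the peak lie over the canonical TSS, from 442 and 419 bp upstream to 193 and 139 bp downstream. In CHP-902R and IMR-32 it began 372 and 355 bp downstream of this TSS, and in N206 and CLB-GA 1318 and 1404 bp downstream of it. The covered lengths of both *MYCN* groups overlapped.

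*CDH1* encodes E-cadherin, the adhesion protein of the epithelial adherens junction (chr16:68771195-68869440, + strand). Its windows, around 10 TSS along a gene of 98246 bp, were covered over 781 bp in IMR-32, 327 bp in CHP-902R, 0 bp in N206 and 0 bp in LAN-2, and over 1198 bp in SJNB-1, 1076 bp in SK-N-AS, 19 bp in SH-SY5Y and 528 bp in CLB-GA. All single copy lines were thus covered, as were 2 of the 4 MNA lines, but in 4 of these 6 lines the promoter peaks lay solely at alternative TSS inside the gene. Around the canonical TSS a peak was found only in CLB-GA, from 927 to 400 bp upstream, and in SJNB-1, from 1157 to 495 bp upstream. From 250 bp before this TSS to 999 bp after it no line had a peak, although the 5 consecutive 250-bp bins of that stretch hold 18, 25, 27, 11 and 23 CpG. In LAN-2 the nearest peak of any kind was 108736 bp from the canonical *CDH1* TSS. Peaks in the gene body numbered 6 in IMR-32, 7 in CHP-902R, 1 in N206 and 0 in LAN-2, and 3 in SJNB-1, 5 in SK-N-AS, 2 in SH-SY5Y and 0 in CLB-GA.

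*EPCAM*, the epithelial cell adhesion molecule (chr2:47572297-47614740, + strand), was covered over 0 bp in IMR-32, 0 bp in CHP-902R, 906 bp in N206 and 1306 bp in LAN-2, and over 516 bp in SJNB-1, 183 bp in SK-N-AS, 222 bp in SH-SY5Y and 501 bp in CLB-GA. LAN-2, in which the other junction genes had no peak, was the line with the longest cover here and the only one with a peak over the canonical TSS, from 220 bp upstream to 1085 bp downstream. In the other covered lines the peaks lay mainly in the first intron, starting 279 bp downstream of the TSS in N206, 377 bp in SJNB-1, 963 bp in SH-SY5Y, 983 bp in CLB-GA and 1002 bp in SK-N-AS. The peak of SH-SY5Y covered only 38 bp of the canonical window. Peaks of CLB-GA, LAN-2, N206 and SH-SY5Y had 103 bp in common. Of the 45-bp windows (the length of a sequenced read) in that stretch 55.9% are unique in the genome. All 8 lines had further peaks in the gene body, which in CLB-GA lay upstream of the canonical TSS. The window overlaps that of the divergent transcript *EPCAM-DT*, so a peak there cannot be given to either gene alone.

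**Figure D2:**
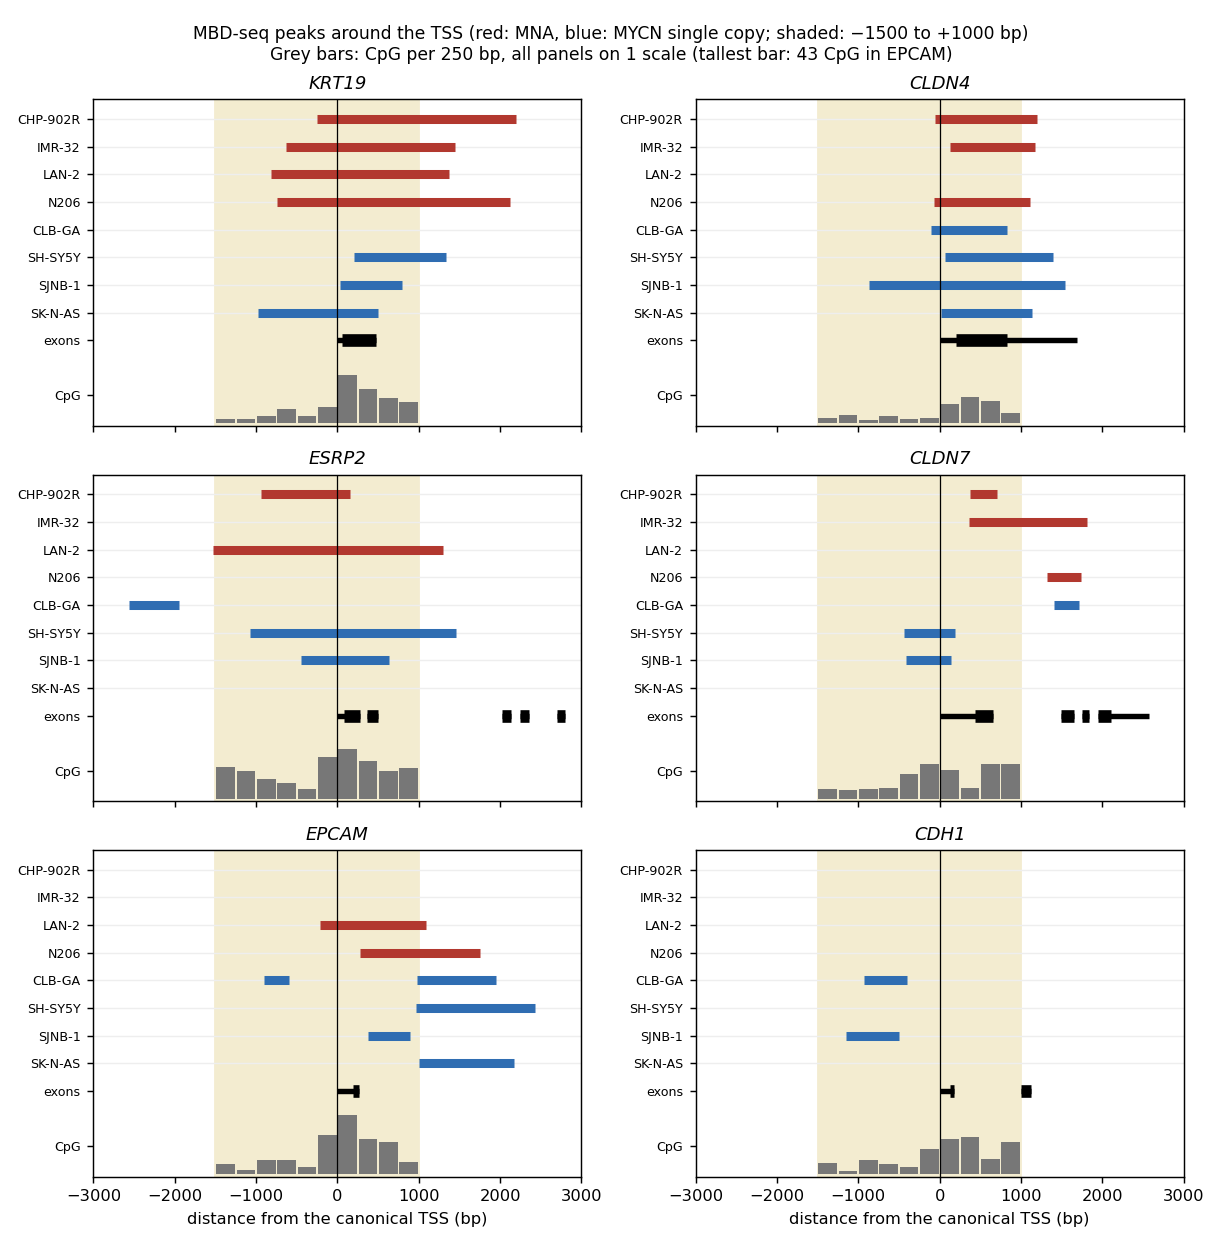
Position of the MBD-seq peaks (red bars for MNA lines, blue bars for *MYCN* single copy lines) around the canonical TSS of 6 genes, in bp from the TSS in the direction of transcription, with the exons of the canonical transcript (thick for coding) and the CpG per 250 bp as grey bars below. Peaks of *KRT19* and *CLDN4* pile up at one place in 7 lines, those of *ESRP2*, *CLDN7* and *EPCAM* shift between lines, and the CpG-rich stretch over the *CDH1* TSS is free of peaks.

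Keratin 19, a type I keratin of simple epithelia encoded by *KRT19* (chr17:39679869-39684560, − strand), was the only one of the 3 keratin genes covered in all lines. Cover was 1957 bp in IMR-32, 2315 bp in CHP-902R, 2736 bp in N206 and 2058 bp in LAN-2. It was 759 bp in SJNB-1, 1476 bp in SK-N-AS, 1013 bp in SH-SY5Y and 728 bp in CLB-GA. Every MNA line was thus covered further than every single copy line. In the MNA lines 1 peak ran across the canonical TSS, from 250 to 814 bp upstream to between 1369 and 2190 bp downstream. Among the single copy lines only the SK-N-AS peak crossed the TSS, from 977 bp upstream to 498 bp downstream, while those of SH-SY5Y and SJNB-1 began 201 and 31 bp downstream, and the peak of CLB-GA lay 3830 to 4633 bp downstream, near the 3′ end of the gene and inside the window of an alternative TSS. Scores ran from 91.65 to 148.71, and the median *KRT19* peak had a higher score than 92.5% of its list, compared with 64.7% for the median of the 63 promoter peaks counted over the 10 genes. The peaks of 7 lines, all but CLB-GA, had 298 bp in common, in the first exon and the start of the first intron, with 31 CpG and 280 coding bases.

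*KRT8* (chr12:53290971-53343738, − strand) and *KRT18* (chr12:53342655-53346690, + strand) encode the type II and type I keratins that pair in simple epithelial cells. *KRT8* was covered over 1814 bp in IMR-32, 9 bp in CHP-902R, 384 bp in N206 and 0 bp in LAN-2, and over 410 bp in SK-N-AS and 0 bp in the other single copy lines. *KRT18* was covered over 564 bp in IMR-32, 438 bp in CHP-902R and 410 bp in SK-N-AS, and over 0 bp in the other 5 lines. Both genes overlap in the annotation, since a long *KRT8* transcript reaches into *KRT18*, and the *KRT18* peak of each of these 3 lines was also counted for *KRT8*, in IMR-32 next to a second one. At the canonical *KRT8* TSS itself, a peak was found only in IMR-32, from 261 bp upstream to 988 bp downstream, and in N206, from 239 to 622 bp downstream. Of the 45-bp windows (the length of a sequenced read) around the canonical *KRT18* TSS 85.9% are unique in the genome, and 87.3% around that of *KRT8*. In the *KRT18* peaks the share was as low as 54.6%, and its part in the result was not tested.

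Of the regulators, *ESRP2*, which directs the splicing of epithelial transcripts (chr16:68262936-68272005, − strand), was covered over 707 bp in IMR-32, 1091 bp in CHP-902R, 713 bp in N206 and 2821 bp in LAN-2, and over 1100 bp in SJNB-1, 667 bp in SK-N-AS, 2541 bp in SH-SY5Y and 1255 bp in CLB-GA. Although present in all 8 lines, the peaks lay at different places. In SJNB-1, CHP-902R, SH-SY5Y and LAN-2 a peak crossed the canonical TSS, in IMR-32, N206 and SK-N-AS the only peak began between 3909 and 3955 bp downstream of it, and CLB-GA had a peak on either side of it, the closer one 1943 bp upstream. The 605 bp common to the first 4 lines hold 61 CpG.

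The paralog *ESRP1*, which has the same role (chr8:95653302-95719694, + strand), was covered over 546 bp in CHP-902R and 726 bp in IMR-32, and over 0 bp in the other 6 lines, of which LAN-2, N206 and CLB-GA also had no peak in the gene body. Only the IMR-32 peak, 688 to 1413 bp downstream, touched the canonical window. Promoter peaks of *ESRP1* were thus found in 2 MNA lines and no single copy line, while SJNB-1, SK-N-AS and SH-SY5Y had peaks elsewhere in the gene body.

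*GRHL2*, a transcription factor that keeps up the expression of *CDH1* and claudin genes (chr8:102504667-102681954, + strand), had a promoter peak in 5 lines. Cover was 842 bp in IMR-32, 0 bp in CHP-902R, 602 bp in N206 and 264 bp in LAN-2, as well as 314 bp in SJNB-1, 0 bp in SK-N-AS, 0 bp in SH-SY5Y and 905 bp in CLB-GA. Peaks of IMR-32 and CLB-GA crossed the canonical TSS, that of N206 ended 12 bp upstream of it, and those of LAN-2 and SJNB-1 began 1056 and 1006 bp downstream. The gene body of 177288 bp held between 5 and 14 peaks in every line, the most in CHP-902R, a line without a promoter peak.

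*MYCN* status is the only grouping that the labels give, so the readouts were compared between the 4 MNA and the 4 single copy lines. *KRT19* was the only one of the 10 genes in which the groups did not overlap in covered length, and no gene had promoter or gene body peaks in all lines of one group and none of the other. *KRT19* was covered over 2266.5 ± 347 bp (SD, n = 4) in the MNA lines and 994 ± 346 bp (SD, n = 4) in the single copy ones, a difference of 1272.5 bp with p = 0.0286 in the two-sided exact permutation test, the smallest value that 4 lines against 4 can give. After adjustment over 20176 protein-coding genes p was 1, as for every gene tested. Groups that did not overlap in covered length were found for 1.22% of protein-coding genes in either direction (247 genes, 175 of them longer in the MNA lines), and for 3.57% of the 1233 protein-coding genes with a promoter peak in all 8 lines, a set like *KRT19* in this respect that was formed after its values were seen. The share of 1 in 10 genes is to be read against both shares. The 1.22% also counts genes that could not separate, as 26.1% of protein-coding genes had no promoter peak in any line, whereas all 10 genes had one. Without N206 the difference was 1116 bp with p = 0.0571, without CHP-902R it was 1256 bp with p = 0.0286, with peaks of score 100 or more 1139.5 bp with p = 0.143, and with the canonical TSS alone 851.5 bp with p = 0.0571 (all exact permutation tests). With the canonical TSS alone the groups overlapped, at 1251 bp in CHP-902R and 1476 bp in SK-N-AS. They also overlapped at the stricter score, which removed the peaks of N206, SK-N-AS and CLB-GA. The mean peak width was 572 ± 50.7 bp for MNA and 561 ± 42.8 bp for single copy, and the median cover of the promoters with peaks in all 8 lines 1150.75 ± 87.5 and 1035.75 ± 123 bp (SD, n = 4 lines each), with overlap between the groups in both. Peak lists were longer in every MNA line (88496 to 112412 peaks) than in every single copy line (70816 to 86079). With lists cut to equal length the *KRT19* difference was 1272.5 bp as before. The cut drops weaker peaks and shortens none, and every *KRT19* peak scored high enough to be kept, so this value could not change. Whether list length or depth affects the covered length of *KRT19* was not tested. The windows of *KRT19* overlap those of the neighbouring keratin gene *KRT15*.

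**Figure D3:**
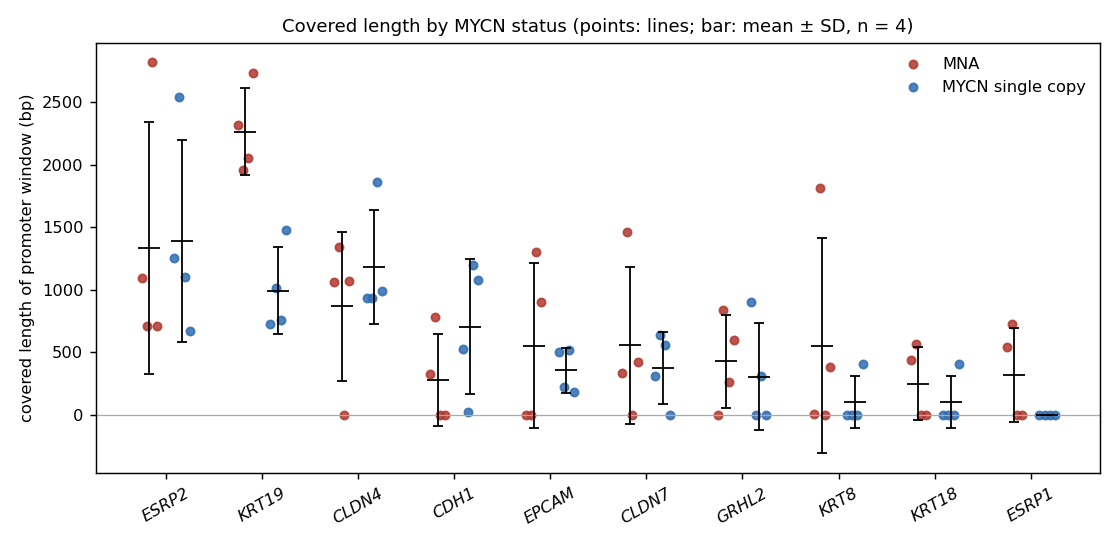
Covered length of the promoter windows (bp) of the 10 genes in the MNA lines (red points) and the *MYCN* single copy lines (blue points), 1 point per line, with the mean as a horizontal bar and the SD as whiskers (n = 4 each). The points of the groups are apart only for *KRT19*.

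For the other genes the lines of both groups overlapped. The largest opposite difference in mean covered length was that of *CDH1*, at 277 ± 370 bp for MNA and 705.25 ± 542 bp for single copy (SD, n = 4 each, exact permutation p = 0.229, adjusted p = 1), and the other 8 genes had unadjusted exact permutation p-values from 0.429 to 0.886. Promoter peaks of *CDH1* and of *EPCAM* were each present in 2 MNA and 4 single copy lines, and those of *ESRP1* in 2 and 0 lines (two-sided Fisher's exact p = 0.429 for each, adjusted p = 1). *KRT8* peaks were present in 3 MNA lines and 1 single copy line (Fisher's exact p = 0.486), and the remaining 6 genes gave p = 1. With complete separation in promoter peaks at 0.197% of all 64486 genes and in gene body peaks at 0.119%, a count of 0 among 10 genes does not stand apart from the genome. Fisher's exact test gave 127 genes for promoter peaks and 77 for gene body peaks with an unadjusted p under 0.05, all of them complete separations, and 0 after adjustment, so that the design of 4 against 4 lines could not have shown a difference in a single gene after adjustment.

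Counted by line, a promoter peak was present in 9 of the 10 genes in IMR-32, 8 in CHP-902R, 7 in N206 and 4 in LAN-2, and in 7 in each single copy line but SH-SY5Y, which had 6. That is 7 ± 2.16 genes per MNA line and 6.75 ± 0.5 per single copy line (SD, n = 4 each), and LAN-2 alone fell below 6. Between 33.2% and 40.9% of all protein-coding genes had a promoter peak in a line, with 39.8% in LAN-2. In the canonical window LAN-2 was not alone at the low end. The counts there were 7 genes in IMR-32, 4 in CHP-902R, 5 in N206 and 3 in LAN-2. Among the single copy lines they were 6 in SJNB-1, 3 in SK-N-AS, 5 in SH-SY5Y and 4 in CLB-GA. The share of protein-coding genes was 14.4% to 21.3%, with 17.1% in LAN-2. For the gene body the counts were 10 genes in IMR-32 and CHP-902R, 8 in N206, 4 in LAN-2, 7 in CLB-GA and 9 in each of the other single copy lines, next to 63.5% to 67.9% of protein-coding genes.

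LAN-2 had no peak at all in the windows or the body of *CDH1*, *ESRP1*, *KRT8*, *KRT18*, *CLDN4* and *CLDN7*, 6 of the 10 genes, although its list was the longest with 112412 peaks. Its 4 covered genes were *EPCAM*, *ESRP2*, *GRHL2* and *KRT19*, and for *EPCAM* and *ESRP2* it was the line with the longest cover. The nearest LAN-2 peak was 98738 bp from the canonical TSS of *KRT8*, 71162 bp from that of *ESRP1*, 54696 bp from that of *KRT18* and 6211 bp from that of *CLDN7*. In a comparison chosen after these values were seen, 11.3% of the 12057 protein-coding genes with a gene body peak in at least 5 of the other 7 lines lacked one in LAN-2, within the 10.1% to 14.1% of the other lines, whereas 5 of the 9 genes described here that met this condition lacked one. In the other lines 0 to 2 of the 8 or 9 such genes were missing. No test was made of this count.

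**Figure D4:**
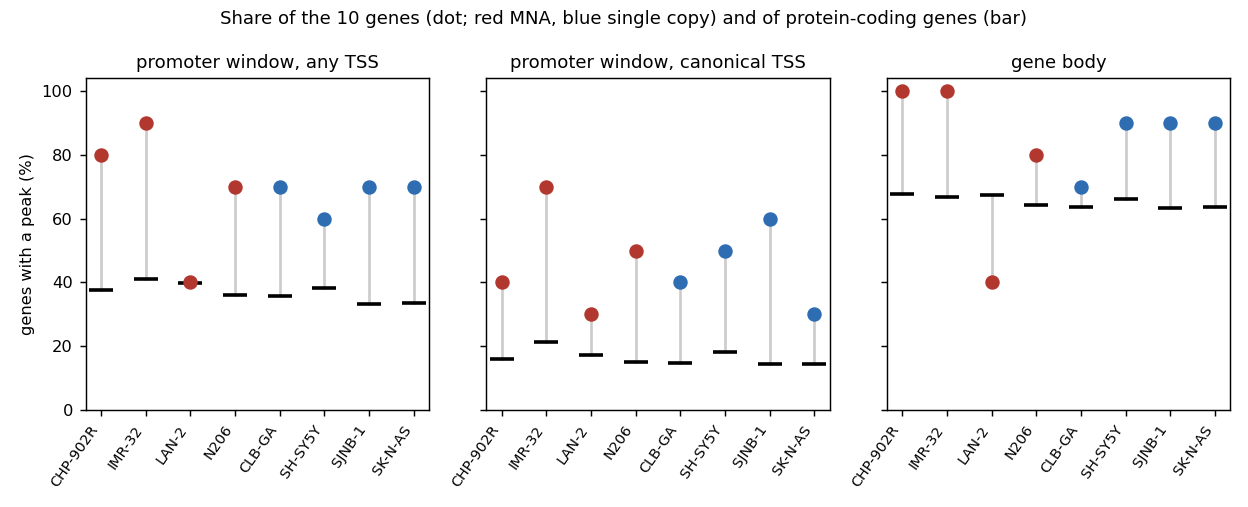
Share of the 10 genes with a peak (points, red for MNA and blue for *MYCN* single copy lines) and of protein-coding genes with a peak (black bars) in each line, in percent, for all promoter windows, the canonical window and the gene body. For LAN-2 the point is level with the bar in the first panel (4 of 10 genes beside 39.8% of protein-coding genes) and below it for the gene body (4 of 10 beside 67.3%), and all other points lie above their bars.

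The 10 genes had 203 distinct peaks, of which 3 counted for both *KRT8* and *KRT18*. Relative to the canonical transcripts, 54.5% of the 136648 bp of peaks, summed gene by gene, lay in introns, 25.6% upstream of the TSS, 14.8% in coding exons and 5.11% in untranslated regions. The split differed between genes. In *GRHL2* and *CDH1*, 83.5% and 83.3% of the peak length was intronic, in *KRT18* 65.2% was coding, and in *CLDN4*, which has no intron in its canonical transcript, 51.9% was upstream. Promoter peaks had a median score of 78.97 (51.45 to 177.94) and a median width of 804 bp. The 143 peaks of gene bodies outside the promoter windows had a median score of 66.09 and a median width of 492 bp. Their median share of 45-bp windows unique in the genome was 83.1%, against 97.8% for the promoter peaks. Peaks scored 100 or more were left at the promoters of *KRT19* and *CLDN4* in 5 lines each, of *CDH1* in IMR-32, of *EPCAM* in N206 and, as 1 shared peak, of *KRT8* and *KRT18* in CHP-902R, and at none of the promoters of *ESRP1*, *ESRP2*, *GRHL2* and *CLDN7*.

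MBD2 binds methylated CpG, and a window with few CpG gives few fragments, so the CpG content of the canonical windows was set beside the peaks. It was 8.44 CpG per 100 bp for *ESRP2*, 6.56 for *EPCAM*, 6.04 for *CLDN7*, 5.56 for *ESRP1*, 5.48 for *CDH1*, 5.32 for *KRT19*, 3.92 for *KRT18*, 3.72 for *GRHL2*, 3.24 for *CLDN4* and 2.64 for *KRT8*. The median over protein-coding genes was 4.2 and the genome held 0.986 CpG per 100 bp. The number of lines with a peak did not follow this order, since *CLDN4* and *KRT19* with 7 lines each lay below *ESRP1* with 1 line and *CDH1* with 2. With the protein-coding genes put into 4 equal bins by CpG content, a canonical promoter peak was present in 0.913 lines on average in the lowest bin and in 1.44, 1.48 and 1.41 lines in the following ones. None of the 10 genes was in the lowest bin, and those in the other bins had means of 3.5 lines (4 genes), 3.33 lines (3 genes) and 4.33 lines (3 genes).

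Repressors of epithelial genes of the ZEB and SNAIL families bind the E-box CACCTG, so the 250 bp upstream of each canonical TSS were searched for these letters on both strands (CACCTG or CAGGTG), a choice made after the *CDH1* sequence was seen. The letters were found in 9 of the 10 genes, all but *CLDN4*, and at least 2 times in 6 of them, with 4 matches in *CLDN7*, 3 in *EPCAM* and 2 each in *CDH1*, *ESRP1*, *KRT8* and *KRT18*. Among 19894 protein-coding genes 17.3% had at least 1 match and 2.47% at least 2 in a stretch of this length. Both *CDH1* matches, 80 and 29 bp upstream of the TSS (the first base of each), stand in the stretch without a peak around this TSS, and both *ESRP1* matches were also free of peaks in all lines. The match of *KRT19*, 17 bp upstream, lay under a peak in the 4 MNA lines and SK-N-AS, that of *ESRP2*, 38 bp upstream, in CHP-902R, LAN-2, SJNB-1 and SH-SY5Y, and that of *GRHL2*, 83 bp upstream, in IMR-32, N206 and CLB-GA. All 4 matches of *CLDN7* lay under the peaks of SH-SY5Y and SJNB-1, 2 of the 3 of *EPCAM* under that of LAN-2, and those of *KRT8* and *KRT18* under peaks of IMR-32. In all, 13 of 18 matches were under a peak in at least 1 line. The same 250 bp upstream were touched by a peak in at least 1 line in every gene but *CDH1* and *ESRP1*. The count thus goes with the cover of these stretches and does not set the letters apart from the sequence around them. A match of letters is not a bound site, and binding was not measured.

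Other genes of epithelial cells were counted in the same way from lists by function. Of 14 genes of junctions and polarity, all had a promoter peak in at least 1 line, compared with 73.9% of protein-coding genes, and the median was 4 lines. *CGN*, the tight junction protein cingulin, had peaks in 7 lines, and *CDH3* (P-cadherin), *CLDN3*, *MARVELD2* (tricellulin) and *LLGL2*, a gene of cell polarity, in 6 each. Around the canonical TSS alone *CLDN3* kept 6 lines, while *MARVELD2* had 4, *CDH3* and *LLGL2* 2 each and *CGN* 1. Of 9 other keratin genes 8 had a peak in at least 1 line, to be read against the same 73.9%, and the median was 6 lines. *KRT7* and *KRT14* had peaks in 7 lines, *KRT15*, *KRT17* and *KRT80* in 6, and *KRT6B* in none. With the canonical TSS alone *KRT7*, *KRT17* and *KRT80* had 6 lines, *KRT14* 3 and *KRT15* 0. The keratin genes are related in sequence and *KRT15* shares windows with *KRT19*, so these counts are not independent of one another.

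For 9 epithelial transcription factors other than *GRHL2* the median was 3 lines. *GRHL1* had a promoter peak in 7 lines (5 with the canonical TSS alone), while *OVOL2* and *TP63* had none in any line. Among 8 genes of the epithelial surface and of vesicle trafficking the median was 4 lines. *RAB25* had a peak in 6 lines, also with the canonical TSS alone, whereas *MAL2* had none. In the miR-200 family, microRNAs that hold down ZEB1 and ZEB2, *MIR200C* and *MIR141* had promoter peaks in the same 4 lines (SK-N-AS, IMR-32, CHP-902R and LAN-2) and *MIR200A*, *MIR200B* and *MIR429* in none. *MIR200C* and *MIR141* are both on chromosome 12. Their count of 0 lines with the canonical TSS alone is not used, since a gene without a canonical TSS also gives 0. Whether the same peaks were counted for both was not examined, so their counts are not to be read as independent. The list of 9 repressors of the epithelial state and mesenchymal genes had a median of 3 lines as well, with *FN1* (fibronectin) in 7, *SNAI1* and *TWIST1* in 6 and *SNAI2* and *CDH2* (N-cadherin) in none. With the canonical TSS alone *SNAI1* and *TWIST1* kept 6 lines, and *FN1* had 0. No gene of any of these lists separated the *MYCN* groups. Over the 45 other epithelial genes, the number with a promoter peak was 24 in IMR-32, 25 in CHP-902R, 18 in N206 and 16 in LAN-2, and 17 in SJNB-1, 25 in SK-N-AS, 26 in SH-SY5Y and 13 in CLB-GA. CLB-GA was thus the lowest line there, followed by LAN-2.

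The exact set of covered lines was shared by many other genes. The 6 lines of *CDH1* were also those of 59 protein-coding genes, of which *PRIMA1* and *DRD5* had the most similar covered lengths, with mean absolute differences of 169 and 199 bp over the 8 lines. The pattern of *EPCAM* was that of 51 genes (*ORC2* and *NEK11* the closest, at 164 and 188 bp), that of *CLDN7* of 72 (*TM2D3* and *ACTL9*, 86.8 and 151 bp), and that of *CLDN4*, covered everywhere but in LAN-2, of 190 (*SPPL2C* and *PRR23B*, 229 and 230.5 bp). *GRHL2* shared its 5 lines with 37 genes (*RAB11FIP4* and *B4GAT1*, 134 and 138 bp) and *KRT8* its 4 with 22 (*CELF5* and *CCSAP*, 178 and 196 bp). For *KRT18* there were 31 genes (*BANF2* and *CCDC83*, 16.3 and 18.6 bp) and for *ESRP1* 128 (*SETMAR* among the closest, at 15 bp). The small differences of the last 2 genes go with their many lines at 0 bp.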

How the data were processed

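The data are MBD-seq peak lists of 8 NB cell lines, 1 library each. Sheared DNA was captured with MBD2, and the authors mapped the paired-end reads of 45 bp on GRCh37 with Bowtie 0.12.7 and called peaks with MACS. The deposited lists hold positions and a score per peak (−10 × log10 of the MACS p-value, lowest 50). Options of the peak calling and an input control are not given in the sources used here. The lists hold no read counts and the depth of each line was not used here, and longer lists may follow from deeper libraries.

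Genes and TSS came from GENCODE release 44 lifted to GRCh37, the canonical TSS being that of the Ensembl canonical transcript. Overlaps, covered lengths, two-sided Fisher's exact and exact permutation tests (adjusted by Benjamini-Hochberg over all genes tested) were computed with Python 3.11.15, numpy 2.4.6, pandas 2.3.3 and scipy 1.17.1, figures with matplotlib 3.10.9, and the uniqueness of 45-bp windows with numba 0.67.0. The steps were tested on simulated data. Alternatives were peaks scored 100 or more, equally long lists (the top 70816 peaks), peak midpoints, the canonical transcript, windows to +500 bp, and leaving out single lines. The 10 genes and the other lists were chosen with earlier results of these data known. All 10 genes are named, along with listed genes that had a promoter peak in at least 6 lines, in none, or in all lines of one *MYCN* group only, and the 2 genes most similar in cover to each gene present in 2 to 7 lines. Some items that this rule names are not reported here.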

Additional observations from a re-analysis of the deposited data

Results flagged for a closer look

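Within the groups of 4 lines, 28 sets of values were examined for a line far from the other 3 by Dixon's ratio, the gap to the nearest line over the range and its 95% limit for 4 values. The limit lets about 1 in 20 sets of continuous values pass by chance. Here 5 sets passed, all among the *MYCN* single copy lines, but in 4 of them the other 3 lines are tied, which makes the ratio 1 by construction. The number of the 10 genes with a promoter peak was 7, 7 and 7 and lowest in SH-SY5Y with 6 (ratio 1), and the number with a gene body peak was 9, 9 and 9 and lowest in CLB-GA with 7 (ratio 1). The covered length of *KRT8* and that of *KRT18* were both 0 bp in 3 lines and 410 bp in SK-N-AS (ratio 1 each), which is 1 peak counted for both genes. *CLDN4* was covered over 935, 938 and 990 bp in 3 lines and 1864 bp in SJNB-1 (ratio 0.941), in which the peak began 863 bp upstream of the TSS.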

How the results depend on the processing

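Of 358 values of the differences between groups for single genes under the alternatives, leaving aside the covered length of *KRT19*, 346 neither changed to the opposite sign nor crossed the threshold, some of which became 0 or ceased to be 0. With peaks of score 100 or more, promoter peaks in at least 1 line were left for 6 genes and in at least 4 lines for 2, the mean number per line was 2 (MNA) and 1.5 (single copy) for promoters and 3.25 and 2.75 for gene bodies, the *KRT19* difference in covered length (MNA minus single copy) was 1139.5 bp (exact permutation p = 0.143), and signs reversed for *CDH1* (25 percentage points in share of lines with a promoter peak, 195.25 bp) and *EPCAM* (25 percentage points). The mean of promoters per single copy line was 6 with equally long lists, 5.5 with midpoints and 5.75 with windows to +500 bp. With the canonical transcript, 5 genes reached at least 4 lines, the means were 4.75 (MNA) and 4.5 (single copy), the *KRT19* difference was 851.5 bp, and *ESRP2* (105.25 bp) and *CLDN7* (-53.75 bp) reversed. *KRT19* with windows to +500 bp gave 1092.5 bp, both differences with exact permutation p = 0.0571. Leaving out single lines, the *KRT19* difference ran from 1116 to 1433 bp (p above 0.05 only without N206), means per line from 6.33 to 8 (MNA) and 6.67 to 7 (single copy) for promoters and 7.33 to 9.33 and 8.33 to 9 for gene bodies, and the genes in at least 4 lines from 7 to 8. Differences that reversed then were *ESRP2* (22.9 bp without CHP-902R, 151 bp without IMR-32, 149 bp without N206, 326 bp without SH-SY5Y), *GRHL2* (-16.1 bp) and *CLDN7* (-123 bp) without IMR-32, and *EPCAM* (-53.5 bp) without LAN-2, with highest and lowest values of 326 and -554 bp for *ESRP2*, 322 and -16.1 bp for *GRHL2*, 365 and -123 bp for *CLDN7*, and 382 and -53.5 bp for *EPCAM*. The cause of these shifts was not tested. Midpoints give no covered length and were not used for it. No paired analysis was possible because the replicate numbers only name the lines.

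Depth sets what a missing peak can mean, and the depth of each line was not used here. Score minimums remove weaker peaks, so the stricter score lowers all counts by construction. The peaks do not resolve single CpG, and the share of unique sequence under a promoter peak was lowest at *KRT18*.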
